A study of Mus musculus with 36 samples.

Results

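The late risers are 79 of the 46019 probes on the array, chosen from the authors' deposited log2 values by how they moved in C2C12 cells after the switch to low serum. A probe was taken if its mean at 9, 12 and 24 h was each less than 0.4 above its mean at 0 h, if its mean at 144 h was at least 1.2 above it, and if all 3 same-numbered arrays at 144 h were above their 0 h array. Because the arrays at 0, 9, 12, 24 and 144 h chose the probes, their values are given as a description only, and the tests below compare the arrays at 1, 1.5, 2, 3, 6, 48 and 96 h, which had no part in the choice. The spread behind their errors and p-values was estimated from all 36 arrays. A gene symbol was available for 64 of the 79 probes, which carry 60 different symbols, and 15 probes had none. At 0 h, 41 late risers lay less than 0.5 above their array's median probe and 38 were already expressed above that limit, whereas 77.2% of all probes lay near the median.

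Myoblasts that lose growth factors leave the cell cycle, switch on myogenin and then fuse into multinucleate myotubes, which go on to assemble sarcomeres and the calcium stores and energy pathways that serve contraction. Adult isoforms of myosin and the muscle regulatory factor Myf6 are known as markers of the later, maturing myotube. Core histone genes, by contrast, are best known for their expression during DNA replication.

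C2C12 is a mouse myoblast line that forms myotubes in culture. At 0 h the cells were undifferentiated and grew in DMEM with 20% foetal bovine serum. At 1, 1.5, 2, 3, 6, 9, 12, 24, 48, 96 and 144 h they had spent that long in DMEM with 2% horse serum. Each of the 12 times had 3 arrays from growths of successive passages, 36 arrays of total RNA in all. In the main fit the p-values rest on 1 spread per probe, pooled over the 12 times, with same-numbered arrays taken as independent. That spread can differ from the one between the 3 growths at the times compared, and all growths are of 1 cell line.

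The median probe read between 8.37 and 8.38 on every array, and the values ran from a floor of 8.33 up to 16.18. A difference for a probe near that floor understates the change in transcript, so no fold is given for such probes. Fewer cells of a kind and less RNA per cell cannot be told apart in these whole-culture samples. Of the 17 probes for myoblast and myotube markers, 10 were higher at 96 h than at 1 to 6 h and 0 were lower, including Myog, Ckm and Des, while Myod1 averaged 10.14 at 96 h and 9.95 at 1 to 6 h. None of 5 adipocyte, 5 macrophage and 7 endothelial marker probes differed in that comparison, and 1 of 4 osteoblast probes was higher, at a level of 8.55. Of 10 fibroblast probes, 1 (Col1a1) was higher and 2 were lower.

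On the deposited scale the late risers stayed flat as a group through 12 h, moved a little by 24 h, and made most of their change between 24 and 96 h. On background-corrected, quantile-normalized values the 41 near the array median had already moved by a median of 0.74 at 24 h. At 1, 9, 12, 24, 48, 96 and 144 h the median difference from 0 h over the 79 probes was 0.01, 0.03, 0.02, 0.18, 0.63, 1.36 and 1.58 on the log2 scale. For all 46019 probes the median difference at 144 h was -0.0001. At 24 h, 8 of the 79 means were still below those at 0 h. Of the 41 probes that began near the array median, the number lying at least 0.5 above it on all 3 arrays was 0, 2, 20, 39 and 41 in the arrays of 0, 24, 48, 96 and 144 h.

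**Figure D1:**
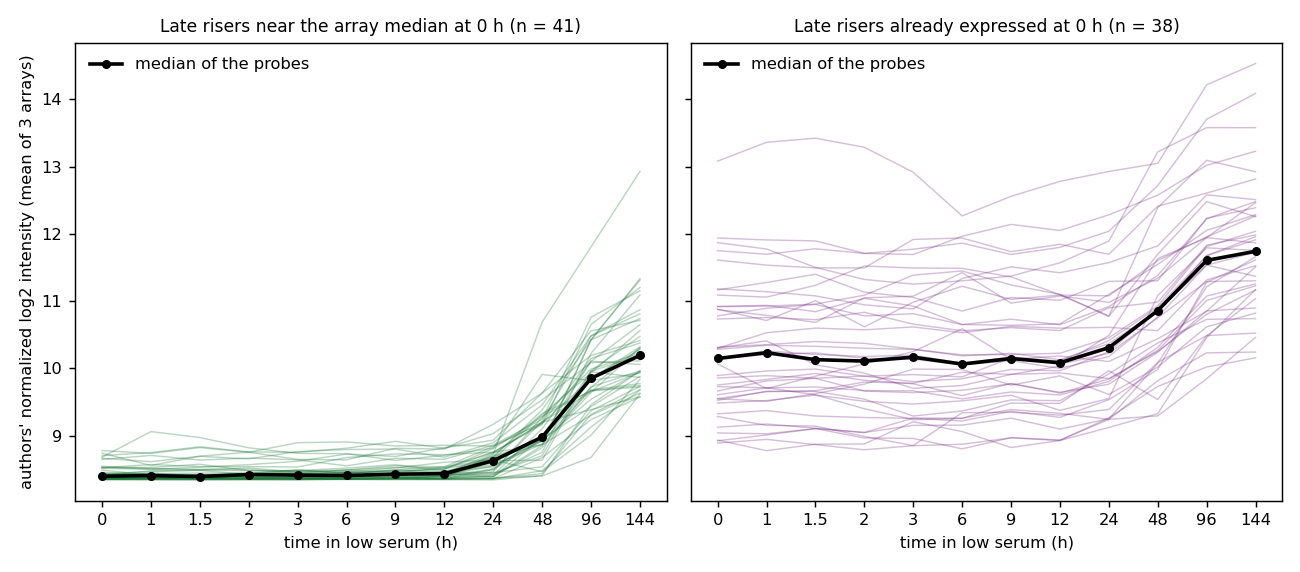
Mean normalized log2 intensity of 3 arrays against time in low serum for each late riser (thin lines), with the median over probes (black), for the 41 probes near the array median at 0 h and the 38 already expressed. The black line of the left panel lies at 10.19 at 144 h and 8.44 at 12 h, and that of the right panel at 11.74 at 144 h and 10.08 at 12 h.

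Some probes lay close to the limits of the choice. Just inside the limit at 144 h stood Yipf7, an unnamed probe and Phlda3, with differences of 1.202, 1.203 and 1.206, and just outside it Tmem205, Ndufb4 and F2, with 1.197, 1.194 and 1.192. Just inside the limit at 24 h stood Smim20, an unnamed probe and Rftn2, each with 0.39. Just outside it stood Pvalb, Dusp28 and Ankrd40, with 0.40, 0.42 and 0.42. Pvalb, the calcium-binding parvalbumin of fast muscle, reached 1.94 at 144 h. These probes are named because they lie at the limits.

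The first question for the arrays outside the choice was whether the rise went on after 48 h. It did for most late risers: 63 of the 79 were higher at 96 h than at 48 h and 0 were lower, at an adjusted p below 0.05 in limma's moderated test over all probes, where 1.23% of all probes were called higher and 1.02% lower. The median difference was 0.75, with a range from -0.09 to 1.57. The 48 h and 96 h arrays of the same number shared a chip, and within the chips the medians of the 96 h minus 48 h differences were 0.67, 0.78 and 0.74 in replicates 1, 2 and 3. In 78 of the 79 probes all 3 same-numbered pairs were higher at 96 h, against 16.6% of all probes. The 96 h arrays lay wholly above the 48 h arrays in 69 late risers, against 6.94% of all probes. With the replicate number as a block, 70 late risers were called higher, beside 2.34% of all probes. With the chip as a block the count was 71, beside 2.57% of all probes. With only the arrays of 48 h and 96 h in the fit it was 44. Fewer of all probes were called in that fit too, as given under processing for both directions together.

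Of the late risers near the array median at 0 h, 39 of 41 were called higher in this comparison, with a median difference of 0.83. Of those already expressed, 24 of 38 were called, with a median difference of 0.71, and the difference between these shares was not tested. On intensities corrected for background and quantile-normalized, the median differences of the same probes were 1.36 for those near the median and 0.72 for those already expressed. Of the genes described below, Myl2, Myh2, Myf6, Ampd1, Pfkm and Rftn2 were not called between 96 h and 48 h when only those times were fitted, and Myl2, Mybpc1, Myf6, Rftn2, H2bc11 and H2bc22 were not called without 1 of the replicates. The exceptions near the median were Hbegf, a ligand of the epidermal growth factor receptor that was singled out after its values were seen, and 1 unnamed probe. Hbegf read 9.48, 10.16 and 9.82 at 96 h, against 10.23, 9.65 and 9.85 at 48 h. Those groups overlapped, and only 1 of the 3 pairs was higher at 96 h.

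A rise had already begun by 48 h. Between 48 h and the mean of 1 to 6 h, 62 late risers were higher and 0 lower, beside 7.69% of all probes higher and 7.28% lower, with a median difference of 0.61, or 1.03 on the background-corrected and quantile-normalized scale. They were 35 of the 41 near the median and 27 of the 38 already expressed. The 3 arrays of 48 h lay above all 15 arrays of 1 to 6 h in 55 late risers, against 4.85% of all probes. On the chips where a 48 h array sat beside arrays of 1 to 6 h, the median difference was 0.56 in replicate 2 and 0.59 in replicate 3. The chip of replicate 1 held none of those arrays. The count was 64, beside 10.2% of all probes, with the replicate block, and 65, beside 9.27%, with the chip block.

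By 96 h, 78 of the 79 late risers were higher than at 1 to 6 h and 0 were lower, beside 8.81% of all probes higher and 9.01% lower. The median difference was 1.35 and the range 0.31 to 3.45, and on the background-corrected and quantile-normalized scale the median was 2.11. The exception was an unnamed probe with a difference of 0.84 and a limma adjusted p of 0.0569. The arrays of 96 h lay above all 15 early arrays in 76 late risers, against 5.52% of all probes. Within the shared chips the median difference was 1.30 in replicate 2 and 1.28 in replicate 3. With the replicate block, and likewise with the chip block, all 79 were higher, beside 11% and 10.3% of all probes. Since all 3 comparisons share arrays, their counts are not independent of each other. The rule asked for little change up to 24 h and a rise by 144 h, and the times compared lie between those it used. A rise among them was therefore likely from the choice itself, most of all between 1 to 6 h and 96 h.

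The late risers can be set beside 318 earlier risers, the probes that met the same conditions at 144 h but were already 0.4 or more above 0 h at 9, 12 or 24 h. Beside the 63 of 79 late risers that were higher at 96 h than at 48 h, with a median difference of 0.75, 81 of the 318 earlier risers (25.5%) were higher and 2 lower, with a median of 0.30. Beside the late risers' median difference of 0.61 at 48 h from 1 to 6 h, that of the earlier risers was 1.46, with 308 called higher. At 96 h the medians were 1.35 in late risers and 1.76 in earlier risers, of which 313 were called higher. The groups were separated by the arrays of 9 to 24 h, so these values describe them and no test was made of the contrast between them.

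Taking each late riser's rise from the mean of 1 to 6 h to the mean of 144 h as 100%, a median of 84.2% was present at 96 h and 34.8% at 48 h. For the earlier risers these shares were 94.5% and 78.6%. The rule split these groups by their early rise, and the shares use the 144 h arrays that chose both. A lower share at 48 h in late risers was therefore largely set by the choice, and the shares are a description. Among late risers near the median the shares were 77.0% at 96 h and 32.4% at 48 h, and among those already expressed 85.5% and 40.8%. All these shares are on the deposited scale, whose floor understates small rises of probes near it. On background-corrected, quantile-normalized values the median difference of 48 h from 1 to 6 h was 1.53 near the median and 0.73 in those already expressed. That of 144 h from 0 h was 3.45 and 1.67. Whether the classes differ in timing was not tested. At least 50% of the rise was present by 48 h in 21 late risers, by 96 h but not 48 h in 56, and later than 96 h in 2. The last of these were Myh2, the fast type IIa myosin heavy chain, and Hs3st1, a heparan sulfate sulfotransferase. The mean at 144 h lay above the mean at 96 h in 70 of the 79, a description that uses the 144 h arrays.

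**Figure D2:**
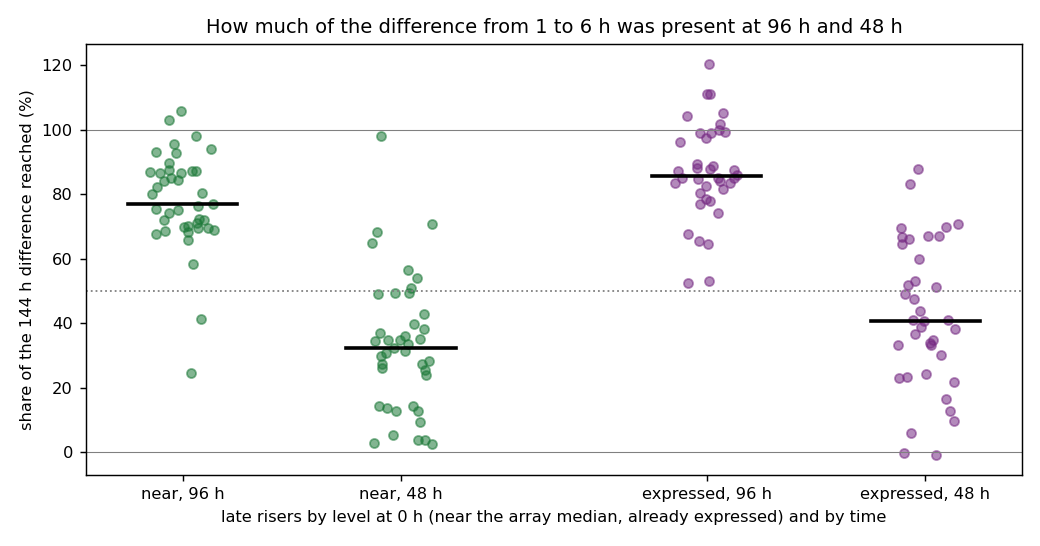
Share of each probe's rise from 1 to 6 h up to 144 h that was present at 96 h and at 48 h, in percent, for late risers near the array median at 0 h (green) and already expressed (purple). Each point is a probe and each bar a median, at 77.0% for 96 h and 32.4% for 48 h in green and at 85.5% and 40.8% in purple. The shares are on the deposited scale and use the 144 h arrays, which had a part in the choice.

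Several late risers near the median encode contractile proteins. The regulatory myosin light chain Myl2, typical of slow and cardiac muscle, read 11.28, 12.34 and 11.80 at 96 h, against 10.32, 11.16 and 10.59 at 48 h. Its 15 arrays of 1 to 6 h lay between 8.35 and 8.38, with a median of 8.36. No array of 96 h or 48 h came near the early ones, and in each replicate the 96 h array was the higher. The difference of 96 h from 1 to 6 h was 3.45 ± 0.14 (SE, limma adjusted p = 7.45e-19), and that from 48 h was 1.12 ± 0.18 (adjusted p = 0.000169). The SD of Myl2 was 0.53 at 96 h and 0.43 at 48 h, but 0.008 over the 15 early arrays. The pooled SE therefore understates its spread at the 2 late times. Several other probes near the floor named below were alike. The SD at 96 h was 0.79, 0.47, 0.30, 0.61 and 0.21 in Mybpc1, Myoz1, Myo18b, Myf6 and the brighter Klk1b26 probe. Over the 15 early arrays it was 0.07, 0.02, 0.006, 0.05 and 0.007. Their SEs understate the spread at 96 h as well. At 144 h Myl2 read 12.43, 13.37 and 12.99, against 8.36, 8.35 and 8.35 at 0 h.

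Mybpc1, the slow-type myosin-binding protein C, read 11.56, 10.35 and 10.06 at 96 h, against 9.47, 9.00 and 9.04 at 48 h. Replicate 1 was the highest of the 3 at both times, and also at 0 h, with 8.55 against 8.36 and 8.35. It had already risen by 24 h, to 9.26, while the other replicates then read 8.54 and 8.45. Taken alone, replicate 1 was past the limit of the rule at 24 h, and only the mean, 0.33 above 0 h, met it. The 96 h arrays lay above the 48 h arrays, with a difference of 1.49 ± 0.27 (SE, limma adjusted p = 0.000816). The other 2 Mybpc1 probes on the array never rose more than 0.07 above the array median.

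Of the adult fast myosin heavy chains, the genes Myh4 and Myh2 met the rule, while Myh1, the type IIx chain, was an earlier riser, 0.98 above 0 h at 24 h. Myh4, the type IIb chain, read 10.56, 10.01 and 9.75 at 96 h, against 9.31, 8.65 and 8.98 at 48 h. Its difference of 96 h from 1 to 6 h was 1.76 ± 0.12 (SE, limma adjusted p = 8.64e-13), and its 144 h arrays, at 10.50, 9.63 and 10.05, were no higher as a group than those of 96 h. At 24 h replicate 1 of Myh4 already read 8.95, against 8.36 at 0 h, while the other replicates read 8.36 and 8.48. Here too replicate 1 alone was past the limit of the rule at 24 h, and the mean, 0.25 above 0 h, met it. A second, dim Myh4 probe was higher by 0.16 at 96 h than at 1 to 6 h (adjusted p = 0.000157). Between 96 h and 48 h that probe was not called (0.04, adjusted p = 0.95). Myh2, the type IIa chain, read 8.93, 8.55 and 8.55 at 96 h, against 8.40, 8.39 and 8.41 at 48 h. The difference was 0.28 ± 0.05 (adjusted p = 0.00158), or 0.15 without replicate 1, and that of 48 h from 1 to 6 h was 0.03 (adjusted p = 0.726). Myh2 then read 9.57, 9.65 and 9.64 at 144 h. Myosin heavy chain genes are close paralogs, and whether their probes share transcripts was not tested here.

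Myoz1, a Z-disc protein that binds calcineurin, read 10.39, 10.03 and 9.46 at 96 h, against 9.07, 8.95 and 8.74 at 48 h, a difference of 1.04 ± 0.13 (SE, limma adjusted p = 1.95e-06). Myo18b, an unconventional myosin of the sarcomere that stands outside the contractile list used here, read 10.30, 9.97 and 9.70 at 96 h, against 9.45, 9.15 and 9.22 at 48 h. Both sets of arrays were separate, and its difference of 96 h from 1 to 6 h was 1.64 ± 0.07 (adjusted p = 2.43e-18). The contractile list held 51 probes of 27 genes, of which 5 were late risers and 21 were earlier risers. Of the 51, 35 were higher and 1 was lower at 96 h than at 1 to 6 h, with a median difference of 0.85. Between 96 h and 48 h 9 were higher and 0 lower, with a median of 0.17.

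In the calcium store the late riser was Casq1, the fast-muscle calsequestrin that buffers calcium in the sarcoplasmic reticulum. It read 10.53, 10.42 and 10.33 at 96 h, against 9.54, 9.35 and 9.26 at 48 h, while the 15 arrays of 1 to 6 h lay between 8.35 and 8.39. All 3 sets of arrays were separate. The difference of 96 h from 48 h was 1.04 ± 0.06 (SE, limma adjusted p = 6.08e-14). A second Casq1 probe was higher at 96 h than at 1 to 6 h by 0.49 (adjusted p = 6.19e-14), but rose too little by 144 h, 0.62, to meet the rule. Of the 28 probes for excitation, calcium handling and the neuromuscular junction, Casq1 was the only late riser and 10 were earlier risers, and 22 were higher and 0 lower at 96 h than at 1 to 6 h. Between 96 h and 48 h 4 were higher and 1 lower.

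The promoters of 3 of these muscle genes are shown because they hold the sequence motifs bound by myogenic factors that were searched for here. Each is the 250 bases before the annotated start in RefSeq (GRCm38.p6), written 5′ to 3′ along the gene, and capitals mark the E-box CAGCTG, whose letters read the same on both strands, and in Myh4 also a MEF2 motif (TTATTTATAG).
Casq1 promoter, chr1:172219896-172220145 (- strand): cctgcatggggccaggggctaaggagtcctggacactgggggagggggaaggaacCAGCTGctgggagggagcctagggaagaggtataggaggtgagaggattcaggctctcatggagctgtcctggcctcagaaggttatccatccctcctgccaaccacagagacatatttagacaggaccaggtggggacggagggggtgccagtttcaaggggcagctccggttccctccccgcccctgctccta
Mybpc1 promoter, chr10:88605153-88605402 (- strand): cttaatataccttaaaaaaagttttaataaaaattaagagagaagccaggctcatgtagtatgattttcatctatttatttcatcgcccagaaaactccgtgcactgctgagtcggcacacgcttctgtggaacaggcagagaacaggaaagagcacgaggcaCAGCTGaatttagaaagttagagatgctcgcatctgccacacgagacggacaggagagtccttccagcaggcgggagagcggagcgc
Myh4 promoter, chr11:67237562-67237811 (+ strand): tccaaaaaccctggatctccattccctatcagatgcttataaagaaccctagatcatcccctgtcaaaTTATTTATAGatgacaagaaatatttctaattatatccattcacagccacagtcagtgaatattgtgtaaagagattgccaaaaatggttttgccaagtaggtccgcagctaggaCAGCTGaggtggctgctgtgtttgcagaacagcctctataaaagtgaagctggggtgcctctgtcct
Promoter windows reaching 250 bases before and 50 bases after the start were found for 46 of the 60 member genes, 58 windows in all. The E-box CAGCTG stood in 9 of the 32 windows of late risers near the median (28.1%), which belong to 8 of 23 genes, in 2 of the 18 windows of the already expressed genes other than histones (11.1%), and in 16.3% of all 32851 windows in the table. A MEF2 motif, on either strand, stood in 3 of the 32 windows (9.38%), in 0 of the 18, and in 3.19% of all windows. Alternative starts of a gene share sequence, so these shares are a description, and a match in these letters does not show that a factor binds there.

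Energy metabolism supplied 3 late risers. Cox7a1, the heart and muscle isoform of a cytochrome c oxidase subunit, read 10.76, 10.89 and 10.64 at 96 h, against 9.42, 9.28 and 9.03 at 48 h. The groups were well apart, with a difference of 1.52 ± 0.12 (SE, limma adjusted p = 5.47e-10), and that of 48 h from 1 to 6 h was 0.60 (adjusted p = 1.54e-05). Ampd1, the AMP deaminase of skeletal muscle, read 10.11, 9.68 and 9.15 at 96 h, against 8.95, 8.86 and 8.80 at 48 h, with replicate 3 the lowest at both times.

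Pfkm, the muscle phosphofructokinase of glycolysis, read 10.23, 10.23 and 10.11 at 96 h, against 9.75, 9.76 and 9.39 at 48 h. Its difference of 0.56 ± 0.08 (SE, limma adjusted p = 7.45e-05) was smaller than those of the other 2. The late-riser probe is the dim one for this gene: a second Pfkm probe averaged 15.37 at 144 h and 12.70 at 0 h and had already risen by 0.81 at 24 h, which made it an earlier riser. The energy list held 21 probes, of which 3 were late and 9 earlier risers. Of the 21, 16 were higher and 0 lower at 96 h than at 1 to 6 h, and 11 were higher and 0 lower at 96 h than at 48 h, with medians of 1.47 and 0.53. Mss51, a protein of muscle mitochondria outside that list, read 10.59, 10.49 and 10.60 at 96 h, against 9.92, 9.44 and 9.54 at 48 h, and its groups did not overlap (0.92 ± 0.09, limma adjusted p = 1.92e-08).

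Among the myogenic regulators the late riser was Myf6, the muscle regulatory factor also called MRF4. It read 10.06, 9.15 and 8.91 at 96 h, against 8.60, 8.54 and 8.47 at 48 h, and its 15 arrays of 1 to 6 h lay between 8.40 and 8.59. At 48 h replicates 2 and 3 stood in that early range and replicate 1 just above it, with a difference of 48 h from 1 to 6 h of 0.05 (limma adjusted p = 0.896). The difference of 96 h from 48 h was 0.83 ± 0.15 (SE, adjusted p = 0.000733). Replicate 1 was well above the other replicates at 96 h, and without it the difference was 0.53, and that of 96 h from 1 to 6 h was 0.54 in place of 0.88. Of the 17 probes of myogenic regulators, 3 were earlier risers, and 6 were higher and 1 was lower at 96 h than at 1 to 6 h. Between 96 h and 48 h 2 were higher and 0 lower, and on the scale with median scaling the list's median at 96 h against 1 to 6 h changed sign, at -0.02 in place of 0.03.

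Several late risers near the median are not muscle-specific genes. Pacsin1, an adaptor that bends membranes in endocytosis, read 10.63, 10.50 and 10.33 at 96 h, against 9.38, 9.08 and 9.18 at 48 h. Its SD was 0.15 at 96 h and 0.012 over the 15 early arrays. Its difference of 96 h from 1 to 6 h was 2.12 ± 0.05 (SE, limma adjusted p = 1.42e-25), and that SE understates the spread at 96 h. Another Pacsin1 probe was higher by 0.66 in that comparison (adjusted p = 2.83e-17), and a further one was not called (0.08, adjusted p = 0.108). Tspan8, a tetraspanin of the cell surface, read 10.12, 10.18 and 10.96 at 96 h, against 8.40, 8.97 and 9.19 at 48 h. At 48 h replicate 1 was still within the early range of 8.35 to 8.55, and the 96 h minus 48 h difference of 1.57 ± 0.15 had an adjusted p of 1.37e-08.

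Fez1, a kinesin adaptor known from axonal transport, was measured by 2 probes and both were late risers. They read 10.71, 10.39 and 10.19, and 10.57, 10.12 and 9.97, at 96 h, against 8.90, 8.87 and 8.85, and 8.84, 8.75 and 8.67, at 48 h. Their differences of 96 h from 48 h were 1.56 and 1.47, and 68.4% and 67.6% of their rise was present at 96 h. Klk1b26, a serine protease of the kallikrein family, was also measured by 2 late risers. The brighter of them read 10.25, 10.21 and 9.86 at 96 h, against 9.15, 9.08 and 9.07 at 48 h, and its difference of 96 h from 1 to 6 h was 1.75 ± 0.05 (limma adjusted p = 2.49e-22). The kallikrein genes are a family of close paralogs, and whether the probes share transcripts was not tested here.

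**Figure D3:**
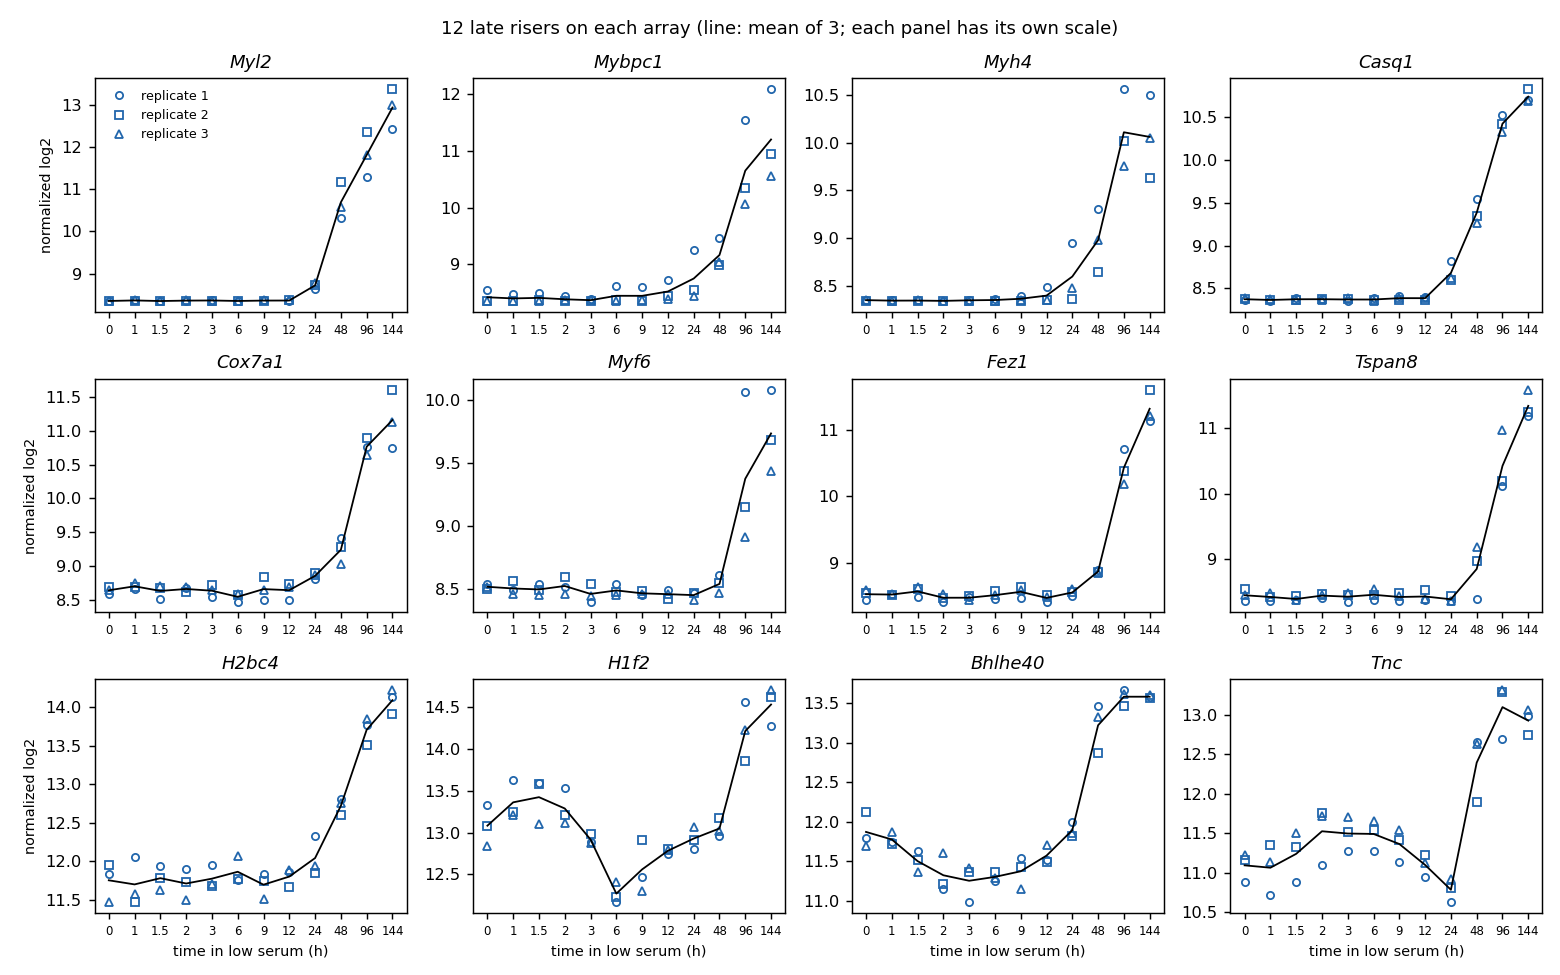
Normalized log2 intensity on every array against time in low serum for 12 late risers, with replicates 1, 2 and 3 as circles, squares and triangles, the mean of 3 as a line, evenly spaced times, and a scale of its own for each panel. Myl2, Casq1 and Fez1 were flat to 12 h and Myf6 to 24 h, while H1f2 was lowest at 6 h, with a range of 12.17 to 12.41.

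Histone genes made up 10 of the 38 late risers already expressed at 0 h, and all 10 rose after 48 h. That family was picked out after the values were seen. Of these, 8 measure H2B genes (H2bc4, H2bc7 with 2 probes, H2bc9, H2bc11, H2bc13, H2bc15 and H2bc22), 1 measures H1f2, a linker histone, and 1 measures the core histone gene H2ac19. H2bc4 read 13.76, 13.51 and 13.84 at 96 h, against 12.80, 12.60 and 12.75 at 48 h, with 1 to 6 h between 11.47 and 12.07. The sets of arrays were separate, and the difference of 96 h from 1 to 6 h was 1.94 ± 0.12 (SE, limma adjusted p = 7.84e-14), a fold of 3.84. A second, dim H2bc4 probe was higher by 0.62 in that comparison (adjusted p = 0.000227). Between 96 h and 48 h that probe was not called (0.42, adjusted p = 0.235). H2bc11 read 11.70, 11.60 and 11.74 at 96 h, where the 48 h arrays averaged 10.91 ± 0.10 (SD, n = 3). The brighter H2bc7 probe read 11.84, 11.72 and 11.87 at 96 h, against 11.01, 10.94 and 10.86 at 48 h.

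The promoters of H2bc11 and H2bc7 are shown because each holds the CCAAT box several times. They come from the same RefSeq table, as the 250 bases before the start, and capitals mark CCAAT or, on the other strand, ATTGG.
H2bc11 promoter, chr13:22042948-22043197 (+ strand): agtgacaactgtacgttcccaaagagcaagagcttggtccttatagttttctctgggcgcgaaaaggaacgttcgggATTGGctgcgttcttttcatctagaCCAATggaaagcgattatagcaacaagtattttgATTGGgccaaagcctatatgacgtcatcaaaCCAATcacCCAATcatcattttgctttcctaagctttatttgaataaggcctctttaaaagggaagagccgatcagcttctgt
H2bc7 promoter, chr13:23574208-23574457 (- strand): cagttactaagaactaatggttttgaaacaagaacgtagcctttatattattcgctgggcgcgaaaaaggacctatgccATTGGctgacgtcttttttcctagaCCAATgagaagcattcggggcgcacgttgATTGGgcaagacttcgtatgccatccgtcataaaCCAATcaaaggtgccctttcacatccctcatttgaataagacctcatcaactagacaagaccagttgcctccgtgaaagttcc
H2bc11 held 5 such boxes and H2bc7 held 4. A CCAAT box stood in all 8 windows found for the histone late risers, but also in all 15 windows of H2B genes in the table, members or not. It stood in 37.4% of all windows and in 34.4% of those of late risers near the median.

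All 10 histone late risers were higher at 96 h than at 48 h and than at 1 to 6 h, and 8 of the 10 were higher at 48 h than at 1 to 6 h. The exceptions at 48 h were H1f2 and H2ac19, with differences of -0.003 and -0.009. H1f2 read 14.56, 13.85 and 14.23 at 96 h, against 12.96, 13.17 and 13.01 at 48 h, a difference of 1.17 ± 0.17 (SE, limma adjusted p = 4.94e-05). H2ac19 read 11.17, 11.57 and 11.21 at 96 h, against 10.43, 10.79 and 10.47 at 48 h, again with no overlap.

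In the other histone families the probes that changed did not all rise. Of the 84 histone probes on the array, 19 were higher and 25 lower at 96 h than at 1 to 6 h. The 15 H2B probes had 11 higher and 0 lower, with a median difference of 1.22. The 26 H2A probes had 4 higher and 16 lower, with a median of -0.64. The 13 H3 probes had 0 higher and 7 lower, with a median of -0.38, while the 21 H4 probes had 3 higher and 2 lower and the 9 H1 probes 1 higher and 0 lower. Under median scaling the H2B count became 10 higher and 1 lower, and the H2A, H3 and H4 counts 4 and 14, 0 and 7, and 3 and 3. Between 96 h and 48 h the H2B probes had 9 higher and 0 lower and the H2A probes 3 higher and 7 lower.

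Histone genes within a family are close paralogs, so a probe may read several of them, which was not tested here. Their transcripts usually end without a poly(A) tail, and the RNA was amplified with a kit that primes on such tails, per the labels' protocols. Of 10 probes for cell cycle genes, 0 were late risers, 3 were higher and 5 lower at 96 h than at 1 to 6 h, and 0 were higher and 5 lower at 96 h than at 48 h. The part of cell cycle and tail length in the histone values was not tested. Without the 10 histone probes, 53 of the 69 remaining late risers were higher at 96 h than at 48 h, and 68 of 69 at 96 h than at 1 to 6 h.

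**Figure D4:**
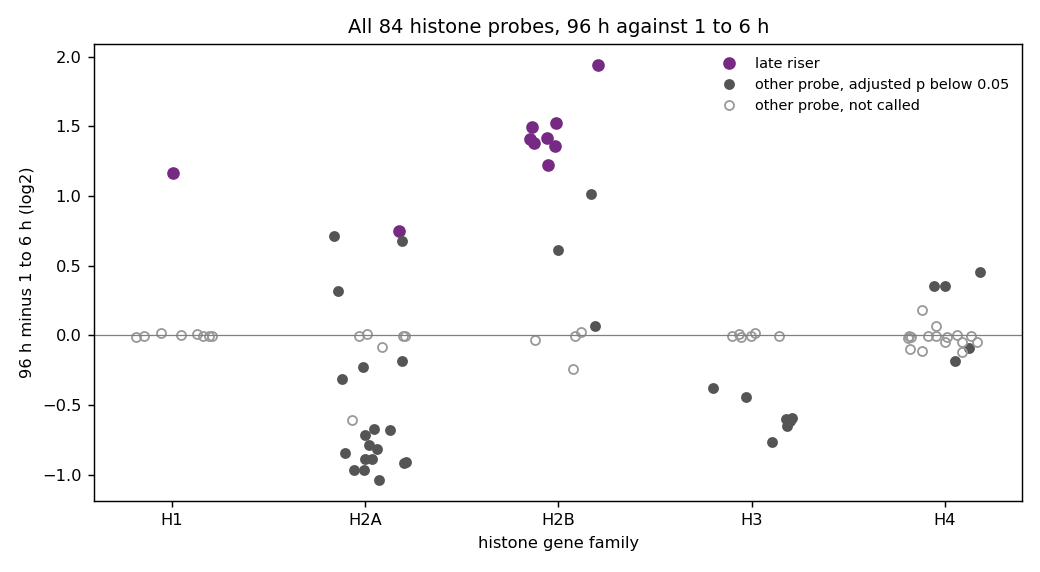
Difference of 96 h from 1 to 6 h on the log2 scale for each of the 84 histone probes by family, with late risers in purple, other probes below an adjusted p of 0.05 in solid grey and the rest as open circles. The 8 H2B late risers lie between 1.22 and 1.94, and most H2A and H3 probes that were called lie below 0.

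In some of the other already expressed late risers most of the rise was present by 48 h. Bhlhe40, a transcriptional repressor of the basic helix-loop-helix class, read 13.67, 13.46 and 13.62 at 96 h, against 13.47, 12.87 and 13.33 at 48 h. These groups overlapped, and the difference of 0.36 ± 0.15 (SE) had a limma adjusted p of 0.34. Its difference of 48 h from 1 to 6 h was 1.79 ± 0.12 (adjusted p = 1.97e-13), with early arrays between 10.98 and 11.87, so that 83.2% of its rise was present at 48 h. Anxa8, a calcium-dependent membrane-binding annexin, read 11.58, 11.91 and 11.90 at 96 h, against 10.96, 11.18 and 11.12 at 48 h. The arrays did not overlap, but the difference of 0.71 ± 0.24 (adjusted p = 0.171) missed the threshold. With the replicate block the difference was 0.71 ± 0.10 (adjusted p = 1.95e-05).

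Tnc, the matrix glycoprotein tenascin C, read 12.69, 13.29 and 13.31 at 96 h, against 12.66, 11.89 and 12.62 at 48 h. The difference was 0.70 ± 0.21 (SE, limma adjusted p = 0.0859), or 0.36 without replicate 2, and its adjusted p with the replicate block was 0.00583, while that of 48 h from 1 to 6 h was 1.03 ± 0.16 (adjusted p = 1.78e-05). Tnc was lower at 24 h than at 0 h, at 10.62, 10.80 and 10.92, against 10.88, 11.16 and 11.23 at 0 h, in each same-numbered pair. The other Tnc probes were dim, with means of 8.35 to 8.59 at 1 to 6 h, and only some of them were called higher at 96 h. Tnc was no member of the 29 probes of the extracellular matrix list, of which 0 were late risers and 4 were higher and 3 lower at 96 h than at 1 to 6 h.

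Fgfrl1, a receptor for fibroblast growth factors that lacks a kinase domain, read 11.45, 11.50 and 10.90 at 96 h, against 10.23, 9.89 and 9.83 at 48 h, a difference of 1.30 ± 0.12 (SE, limma adjusted p = 8.25e-09). Rftn2, a protein of lipid rafts, read 12.75, 12.60 and 12.41 at 96 h, against 12.09, 11.77 and 11.60 at 48 h (0.76 ± 0.13, adjusted p = 0.000318). A second Rftn2 probe was also higher at 96 h than at 1 to 6 h, by 0.84, and another one averaged 8.37 at both.

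Dio2, the deiodinase that converts thyroxine to its active form, differed between replicates throughout. It read 11.29, 9.89 and 10.20 at 96 h, against 9.72, 8.87 and 9.40 at 48 h, and replicate 1 was the highest of the 3 at every one of the 12 times. The difference of 96 h from 48 h was 1.13 ± 0.40 (SE, limma adjusted p = 0.197), and its adjusted p with the replicate block was 0.000371. All 3 pairs were higher. The difference of 96 h from 1 to 6 h was 1.50 ± 0.31 (adjusted p = 0.000475). A second Dio2 probe averaged 8.36 both at 96 h and at 1 to 6 h.

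How flat the late risers were before 9 h can be described against their 0 h arrays, which had a part in the choice. Of the 41 near the median, 40 stayed within 0.2 of 0 h at every time from 1 to 6 h, as did 99.1% of all probes near the median, whose values lie close to the floor. The exception was Hbegf, which read 8.97, 9.09 and 9.12 at 1 h, against 8.65, 8.66 and 8.73 at 0 h. Of the 38 already expressed, 18 (47.4%) stayed within 0.2 and 10 (26.3%) were off by 0.4 or more at some early time, beside 51.7% and 11.6% of all probes already expressed. In a moderated F-test among 1, 1.5, 2, 3 and 6 h, 2 late risers differed, beside 1.03% of all probes. With the replicate number as a block, 5 late risers differed, beside 3.34% of all probes, and with the chip as a block 6, beside 3.18%. The genes in this paragraph and the next, other than Bhlhe40 and Tnc, were singled out after their values were seen.

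H1f2 differed among the early times (limma adjusted p = 0.000517). Its arrays of 1 h read 13.63, 13.25 and 13.21, those of 1.5 h read 13.59, 13.58 and 13.10, and those of 2 h read 13.54, 13.21 and 13.12. Those of 3 h then read 12.89, 12.99 and 12.88, and those of 6 h read 12.17, 12.23 and 12.41. Of these times 6 h was the lowest in every replicate. At 144 h H1f2 read 14.27, 14.62 and 14.71, against 13.33, 13.08 and 12.84 at 0 h. Mxd1, which pairs with MAX and opposes MYC, also differed (adjusted p = 0.00656), but over a narrow range, with means of 8.91 at 6 h and 8.56 at 1 h.

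Bhlhe40 averaged 11.25 at 3 h and 11.30 at 6 h, below its 0 h mean of 11.87, and its F-test had a limma adjusted p of 0.275. Tnc averaged 11.49 at 3 h and at 6 h and 11.09 at 0 h (adjusted p = 0.773). Col8a1, a short-chain collagen, was measured by 2 late risers, and 1 of them was among the 5 called with the block (adjusted p = 0.0101). It averaged 10.59 at 6 h and 9.70 at 1 h.

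Which probes met the rule depended on the scale. On intensities corrected for background and quantile-normalized, 163 probes met the same rule, 40 of them among the 79. Of the 41 late risers near the median, 27 had already risen by 0.4 or more at 24 h on that scale, with a median of 0.74. Myl2 stood at 1.63 at 24 h on that scale and at 0.37 on the deposited scale, Casq1 at 1.16 and 0.31, and Myh4 at 1.25 and 0.25. Others stayed low on both: Tspan8 was at -0.27 and -0.06, Myf6 at -0.24 and -0.07, Myh2 at 0.24 and 0.01, and the Fez1 probes at 0.06 and 0.03, and at -0.23 and -0.07. Of the 38 already expressed, 9 reached 0.4 at 9, 12 or 24 h, and 35 still rose by 1.2 or more at 144 h.

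The rule was also applied to 2 of the 3 replicates at a time. It chose 97, 66 and 77 probes, and all of these (100%) were above 0 h at 144 h in the replicate left out, beside 48.3% to 49.7% of all probes. Their median differences there were 1.37, 1.60 and 1.59 at 144 h, and the means of these medians in the arrays of 24, 48, 96 and 144 h were 0.14 ± 0.07, 0.60 ± 0.08, 1.30 ± 0.05 and 1.52 ± 0.13 (SD, n = 3). A share of 61.9% to 81.8% passed 1.2 at 144 h again, beside 0.945% to 0.960% of all probes. At 24 h, 78.4% to 92.4% were again below 0.4, beside 97.1% to 97.7% of all probes. The 3 lists overlap, so they are not independent.

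Of the 60 genes, 20 had other probes on the array, 33 in all. Of those 33 probes, 19 were higher at 96 h than at 1 to 6 h, 0 were lower and 14 were not called, and 13 of these 14 never came 0.5 above the array median on any array. Of the 15 late risers without a symbol, 10 were higher at 96 h than at 48 h and 14 at 96 h than at 1 to 6 h, with differences of 0.84 to 2.12 in the second comparison. Of the 35 with a symbol that the naming rule did not take, 28 and 35 were higher in these comparisons, with differences of 0.58 to 1.58 from 1 to 6 h.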

How the data were processed

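Illumina arrays (Mouse WG-6 v1.1) were hybridised with amplified, biotin-labelled total RNA of 36 C2C12 cultures, per the labels' protocols. The deposited normalized table holds the authors' log2 values, and how these were normalized is not stated in the labels. The deposited raw table holds probe intensity values, with array medians of 179 to 307. Gene symbols came from the platform annotation: each of the 44505 rows of the authors' value table equalled 1 row of the normalized table on all 36 arrays, which gave 28471 probes 1 symbol, 10 several and 17538 none. Of the gene IDs, 51 were not in the RefSeq table and kept the symbol of the platform annotation.

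The normalized table was fitted without a filter, because the rule for late risers is defined on it. A mean per time was fitted to all 36 arrays with limma 3.58.1 (R 4.3.3) and an intensity trend. P-values were two-sided, adjusted over all 46019 probes by the Benjamini-Hochberg method, with a threshold of 0.05. The fit was also run on simulated data with independent noise of equal spread at every time. Such data cannot show how it behaves with correlated same-numbered arrays or a larger spread at late times. All 79 late risers would have passed a filter on dim probes (above the array's raw median on at least 3 arrays). Tables and figures used Python 3.11.15, pandas 2.3.3 and matplotlib 3.10.9.

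The members, the lists and the comparisons were chosen with earlier results of these data known. Genes named are, in each level class at 0 h, the 12 with the largest difference of 96 h from 1 to 6 h among those past the threshold and higher in all 3 pairs, and every member of a gene list, 29 probes in all. Any other gene was chosen after its values were seen. Of the other lists, matrix proteases (19 probes) had 0 higher and 5 lower at 96 h than at 1 to 6 h, lysosome and autophagy (16) 4 and 3, muscle atrophy (11) 2 and 4, interferon response (22) 0 and 1, and complement (7) 1 and 0, and 0 of these probes were late risers.

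The 3 arrays of a time came from growths of successive passages, per the labels, which do not say that a number stands for the same passage at every time. Deviations of same-numbered arrays from the time means correlated at 0.44 or more between 96 h and 48 h, 0.13 or more between 96 h and 1 to 6 h, and 0.24 or more between 1 h and the other early times. Same-numbered arrays were therefore taken as pairs in the pair counts and the replicate block. The main fit did not pair them. Between 48 h and 1 to 6 h replicate 3 had -0.02. The arrays lay on 6 chips of 6. Alternatives covered the background correction, the scaling, a dim filter, the trend, the replicate and chip blocks, left-out arrays and the limits of the rule.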

Additional observations from a re-analysis of the deposited data

How the results depend on the processing

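Every difference of 96 h from 1 to 6 h for the 29 named probes kept its direction and stayed past the threshold in all 319 values under the other settings, which ran from 0.19 to 5.57. Most of these probes were named for a large difference past the threshold in this same comparison. That outcome was therefore largely set by the choice and is a description. The late risers higher at 96 h than at 48 h numbered 63 and ranged from 43 (without replicate 2) and 44 (without replicate 3, or with only the times compared fitted) to 71 (chip block), with 51 under median scaling, 70 under the replicate block, 56 to 59 without 1 array, and 53 of 69 without the histone probes, an alternative chosen after seeing the data. Those higher at 48 h than at 1 to 6 h numbered 55 to 66, with 64 under the replicate block, and at 96 h than at 1 to 6 h 76 to 79, with 79 under it; the block turned no direction.

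Over all probes, 1035 were called between 96 h and 48 h, but 342 with only the times compared, 625 under median scaling, 1979 and 2136 with the replicate and chip blocks, and 436 to 578 without a replicate. Median scaling gave 216 higher and 409 lower where the deposited scale gave 566 and 469, and 2720 and 4965 between 96 h and 1 to 6 h where the deposited scale gave 4054 and 4148.

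The late risers that differed among 1 to 6 h numbered 2, but 5 with the replicate block, 6 with the chip block and 0 to 1 without a whole replicate. The late risers themselves numbered 163 on background-corrected, quantile-normalized values, 147 with a limit of 1.0 at 144 h and 51 with a limit of 1.4, against 56 and 102 with limits of 0.3 and 0.5 at 9 to 24 h; the held-out median of 1.52 became 1.24 and 1.77 under the limits of 1.0 and 1.4. Those near the array median numbered 35 and 48 with limits of 0.25 and 1.0. Differences of probes near the floor depended on the scale: the late risers' median difference of 96 h from 1 to 6 h was 1.35 on the deposited scale and 1.86 to 2.11 on the 3 other scalings.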

Other observations

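Among the H2A genes, in a comparison picked out after its values were seen, probes of H2ac12, H2ac15, H2ac22 and H2ac20 were lower at 96 h than at 48 h. They averaged 13.18, 13.26, 14.20 and 14.48 at 96 h, against 14.84, 14.85, 15.49 and 15.73 at 48 h, where the highest value in the whole table was 16.18. Whether probes so near the top of the scale were saturated was not tested, so their falls are not ranked. Besides the late riser H2ac19, 3 H2A probes were higher at 96 h than at 1 to 6 h. They were a pair of H2ac18 probes, by 0.71 and 0.68, and a second H2ac20 probe, by 0.32, while another H2ac18 probe was lower, with -0.31. Chrne, the acetylcholine receptor subunit of the adult neuromuscular junction, lay outside the late risers with a difference of 0.85 at 144 h. It was higher at 96 h than at 48 h by 0.25 (limma adjusted p = 0.00728). Ckmt2, the mitochondrial creatine kinase of sarcomeres, and Mybpc2, the fast-type myosin-binding protein C, also missed the limit at 144 h, with 0.81 and 0.77, and were higher at 96 h than at 48 h by 0.52 and 0.59.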
